A study of Mus musculus with 4 samples.

Results

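The Slit and Robo guidance genes on these arrays are 8 mouse genes: the ligands Slit1, Slit2 and Slit3, the receptors Robo1, Robo2, Robo3 and Robo4, and the intracellular effector Srgap1. They were chosen as every non-control probe whose RefSeq accession belongs to one of these genes, which gave 10 of the 55681 non-control probes, with a second probe for Robo2 and for Srgap1. The study compared 2 arrays of Sall1 knockout kidneys, whose sample titles name CreER, with 2 arrays of control kidneys, whose titles name flox. All kidneys were taken from embryos at E13.5, on a hybrid of the 129 and C57BL/6 strains, 24 h after tamoxifen was given at E12.5. CreER is a Cre recombinase that tamoxifen activates, and the titles name it for the knockout samples alone, while the protocol text of all 4 samples speaks of Sall1CreER kidneys. Whether the controls carried CreER is thus not settled, and if they did not, an effect of CreER itself and of Sall1 loss cannot be told apart. Whether a sample came from 1 embryo or several, and whether samples shared a litter, is not stated in the labels, which give no further detail of the CreER allele beyond the name Sall1CreER.

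Slits are secreted proteins that bind the immunoglobulin domains of Robo receptors and repel growing axons and migrating cells. The Robo tail has no enzyme activity of its own and acts through adaptors, among them the Slit-Robo GTPase-activating proteins (srGAPs). In the mouse kidney, Slit2 made by the nephric duct and Robo2 in the nephrogenic mesenchyme keep the domain of Gdnf, the growth factor that draws out the ureteric bud, confined to its posterior part, and loss of either gene leaves Gdnf in an enlarged domain with extra ureteric buds.

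Robo2 was the gene of the 7 that were measurable whose signal differed most from control, and both of its probes were lower in the knockout kidneys, by 1.41-fold and 1.63-fold. Its neighbour on chromosome 16, Robo1, differed by 0.04 on the log2 scale. Robo4 and Slit1 were higher in the knockout kidneys, by 1.20-fold and 1.19-fold, without overlap of the arrays, though Slit1 by a narrow margin. The arrays of Slit2, Slit3, Robo1 and Srgap1 overlapped. Lack of overlap is common here, since it held for 49.2% of all genes and unnamed sequences tested. None of the 7 genes passed the test over all genes (limma, Benjamini-Hochberg adjusted p under 0.05). Robo2 passed under a variance prior that follows the signal.

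The promoters of Robo2 are shown because this gene carries the difference, with that of Robo1 for comparison. RefSeq lists 3 start regions for Robo2 and 1 for Robo1 in assembly GRCm38.p6, all on chromosome 16, and each line runs from 250 bases before to 50 bases after the start, 5′ to 3′ on the strand of the gene, with every CG pair and every AATATT in capitals. AATATT reads the same on both strands, does not overlap CG, and stands here for AT-rich DNA of the kind that a zinc finger cluster of the related protein Sall4 binds in mouse embryonic stem cells.
Robo2 start 1, chr16:75447244-75447543, minus strand: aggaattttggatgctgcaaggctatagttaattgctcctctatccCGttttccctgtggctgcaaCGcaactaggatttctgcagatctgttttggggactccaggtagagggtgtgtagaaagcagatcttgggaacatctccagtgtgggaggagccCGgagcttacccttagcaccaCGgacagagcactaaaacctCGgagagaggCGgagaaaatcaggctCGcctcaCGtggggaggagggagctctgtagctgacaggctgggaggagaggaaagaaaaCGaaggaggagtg
Robo2 start 2, chr16:75092721-75093020, minus strand: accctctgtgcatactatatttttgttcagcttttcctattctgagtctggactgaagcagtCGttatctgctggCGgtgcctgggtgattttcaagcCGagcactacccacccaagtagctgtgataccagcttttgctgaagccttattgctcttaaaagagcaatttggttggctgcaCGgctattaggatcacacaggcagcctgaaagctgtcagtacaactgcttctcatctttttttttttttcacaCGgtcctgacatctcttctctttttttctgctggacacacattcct
Robo2 start 3, chr16:74411776-74412075, minus strand: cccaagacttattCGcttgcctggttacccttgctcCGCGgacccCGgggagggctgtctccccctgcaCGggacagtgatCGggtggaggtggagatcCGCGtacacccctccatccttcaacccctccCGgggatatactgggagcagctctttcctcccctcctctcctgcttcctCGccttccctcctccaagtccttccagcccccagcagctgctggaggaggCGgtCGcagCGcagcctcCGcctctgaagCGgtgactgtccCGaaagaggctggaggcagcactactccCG
Robo1 start, chr16:72662899-72663198, plus strand: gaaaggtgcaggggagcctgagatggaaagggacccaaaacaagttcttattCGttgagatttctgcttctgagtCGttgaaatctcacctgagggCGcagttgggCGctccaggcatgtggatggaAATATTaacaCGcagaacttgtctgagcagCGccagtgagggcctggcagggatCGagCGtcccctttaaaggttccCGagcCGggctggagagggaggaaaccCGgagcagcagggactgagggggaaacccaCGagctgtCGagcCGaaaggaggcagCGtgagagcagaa
The 3 Robo2 promoters held 9, 5 and 17 CG pairs at GC contents of 53.3%, 45% and 65%, against 15 CG pairs at 57.0% in Robo1 and a median of 7 pairs at 52.7% over all 32817 promoters in the table. AATATT occurred in the Robo1 promoter alone of the 9 promoters found for 7 of the 8 genes, and in 6.81% of all promoters. RefSeq holds 25 transcripts for Robo2, 6 of them curated, and which start region feeds the RNA that either probe reads is not known from these files.

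Slit2 and Slit3 also carry a microRNA each within their gene span, Mir218-1 on chromosome 5 in Slit2 and Mir218-2 on chromosome 11 in Slit3, and miR-218 is known in mice to act on Robo1 and Robo2 mRNA. The mature sequences are shown from RefSeq, 5′ to 3′, with the seed, bases 2 to 8, in capitals, because both genes give the same 5p arm and hence the same seed.
mmu-miR-218-5p of Mir218-1, chr5:48223966-48223986, plus strand, and of Mir218-2, chr11:35616840-35616860, plus strand: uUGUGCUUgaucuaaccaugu
mmu-miR-218-1-3p, chr5:48224005-48224026, plus strand: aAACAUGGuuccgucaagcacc
mmu-miR-218-2-3p, chr11:35616882-35616903, plus strand: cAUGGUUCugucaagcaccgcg
The seeds of the 2 arms named 3p differ from each other. No probe was matched to Mir218-1 or Mir218-2, so their level was not analysed here, and the Slit2 and Slit3 signals given below are those of the host mRNAs.

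Signals below are multiples of the 75th percentile of the array's own processed signal, a unit that allows 1 probe to be compared between arrays but not 1 probe with another. The 4 arrays each held 62976 spots, and between 60.6% and 64.2% of the spots were well above background. Pearson's r across probes, which are not independent replicates, was 0.9951 to 0.9960 within groups and 0.9929 to 0.9942 between groups. With 2 arrays in each group the number of arrays limits the precision, and a p-value reflects only how far these few samples spread, which may be technical. In such bulk tissue, fewer cells of a type and less RNA per cell cannot be told apart. Sall1 itself gave signals of 2.04 and 2.09 in the knockout arrays, against 3.45 and 3.49 in the control arrays, which is 1.68-fold lower (log2 difference -0.75 ± 0.056, SE, n = 2 each; limma adjusted p = 0.125). The kidney markers Six2, Eya1 and Gdnf gave signals above the 75th percentile on each array, with values below. Whether the 1 Sall1 probe lies in the deleted part of the gene is not stated, so the signal is no check of the deletion.

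**Figure D1:**
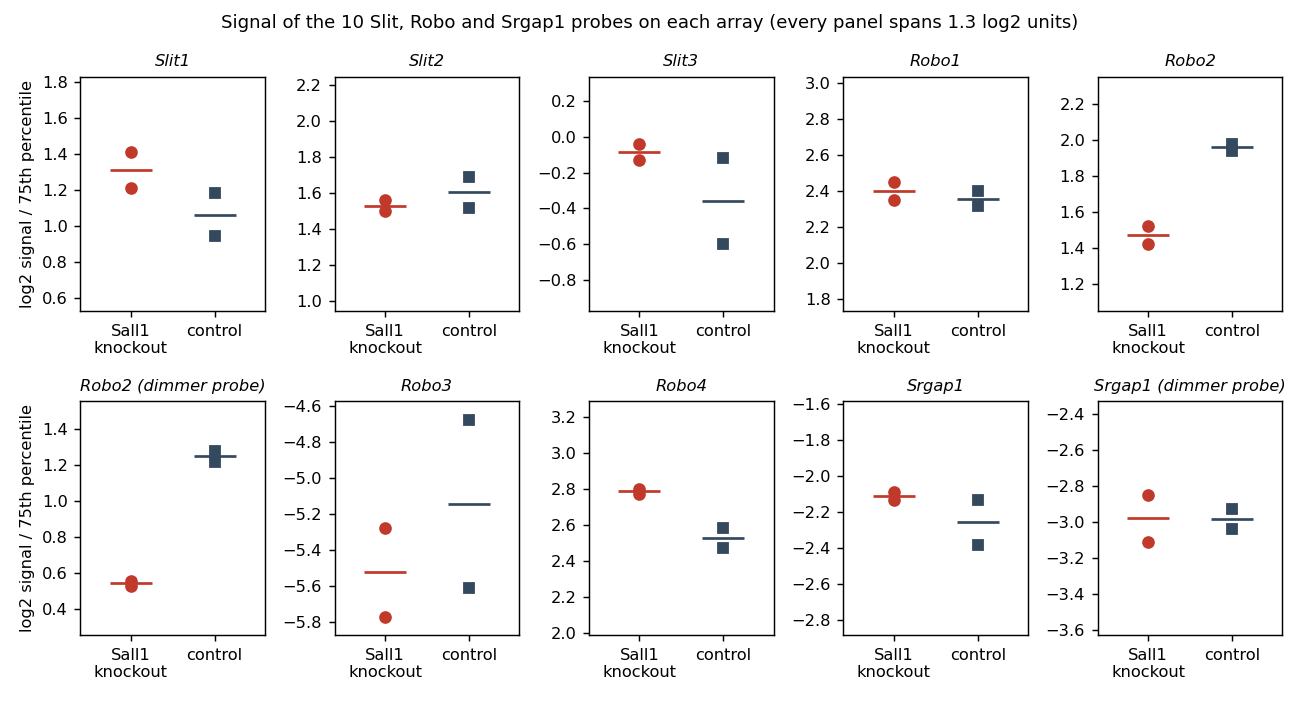
Signal of each of the 10 Slit, Robo and Srgap1 probes on each array, as log2 of the signal over the array's 75th percentile, with Sall1 knockout arrays (red circles) left of control arrays (blue squares) and a bar at the mean of 2 arrays. Both Robo2 probes are lower and Robo4 and Slit1 are higher in the knockout arrays without overlap, while the other probes overlap between the groups.

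Robo2, the receptor that mesenchymal cells around the ureteric bud use to respond to Slit2, gave signals of 2.68 and 2.86 in the knockout arrays, against 3.85 and 3.94 in the control arrays, for its brighter probe. Both knockout arrays lay below both control arrays, and the arrays of each group lay close together. The log2 difference was -0.49 ± 0.065 (SE, n = 2 each), with a 95% interval from -0.67 to -0.31. In limma over 25097 genes and unnamed sequences the unadjusted p was 0.00197 and the adjusted p 0.200, at rank 246 by p, and 1.82% of those tested had a lower difference.

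The second Robo2 probe, designed to the same RefSeq transcript, gave signals of 1.44 and 1.47 in the knockout arrays, against 2.43 and 2.33 in the control arrays. These groups were also apart, with a log2 difference of -0.71 ± 0.063 (SE, n = 2 each) and a 95% interval from -0.89 to -0.53. In the limma fit of all 34275 probes its unadjusted p was 0.000451 and its adjusted p 0.165. The log2 ratio of the dimmer to the brighter Robo2 probe was -0.90 and -0.96 in the knockout arrays, against -0.66 and -0.76 in the control arrays, a difference of -0.22. The 2 probes share a transcript and are not replicates of each other.

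With a variance prior that follows the signal and is robust to outlying genes, limma called Robo2 lower, with an adjusted p of 0.0109 for the brighter probe over genes and 0.00241 for the dimmer probe over probes. Over the 16 alternatives run for Robo2 as a gene, 1 of them the mean over both probes, the adjusted p lay between 0.0109 and 0.502. That prior called 156 of 25097 genes and unnamed sequences lower (0.622%) and 135 higher (0.538%), together 1.16%. The default prior called 0 (0%), with a smallest adjusted p of 0.0709, while 3186 (12.7%) had an unadjusted p under 0.05 and 14 higher (0.0558%) and 13 lower (0.0518%) had an adjusted p under 0.1. In the fit of all probes it likewise called 0 (0%), while 12% had an unadjusted p under 0.05 and 5.8% were lower at that p.

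**Figure D2:**
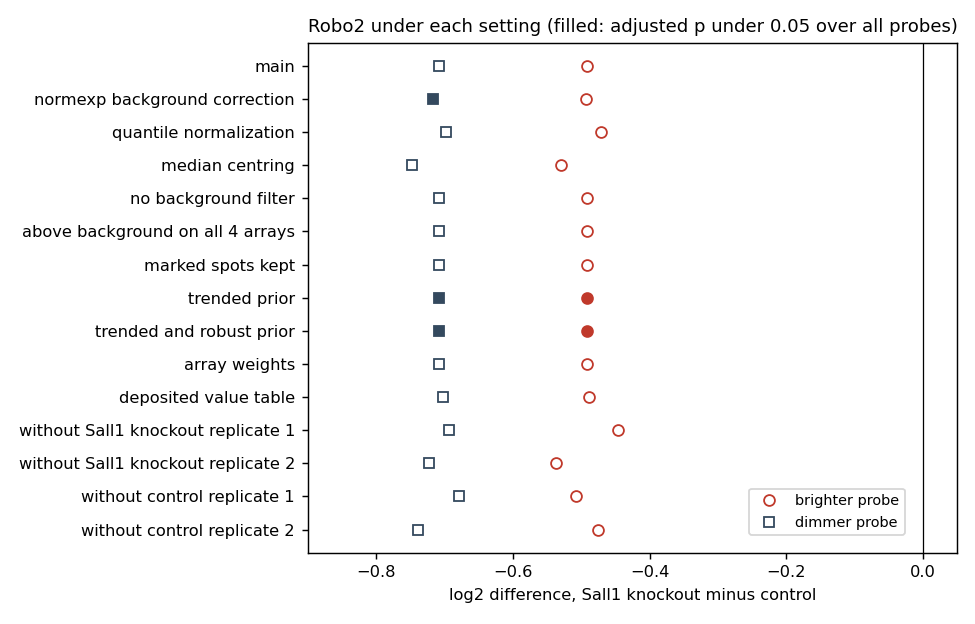
Log2 difference, Sall1 knockout minus control, of the brighter (red circles) and the dimmer (blue squares) Robo2 probe under each way of processing the arrays, with filled symbols where the adjusted p over all probes was under 0.05. Every value lies left of 0, the brighter probe is filled under the 2 trended priors, and the dimmer probe is filled under these and under normexp background correction.

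Robo1, which like Robo2 binds Slit1 and Slit2, gave signals of 5.10 and 5.45 in the knockout arrays, against 4.98 and 5.27 in the control arrays. The arrays of the groups interleaved, with a log2 difference of 0.04 ± 0.071 (SE, n = 2 each), a 95% interval from -0.16 to 0.24 and an adjusted p of 0.821. Between Robo1 and Robo2 on chromosome 16 the RefSeq table lists 5 genes, 0 of them protein coding. The log2 ratio of the brighter Robo2 probe to the Robo1 probe was -0.93 and -0.93 in the knockout arrays, against -0.37 and -0.42 in the control arrays.

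Robo4, the Robo of endothelial cells, which guards vessel integrity and binds Unc5b, gave signals of 6.83 and 6.96 in the knockout arrays, against 6.00 and 5.52 in the control arrays. Both knockout arrays were higher than both control arrays, with a log2 difference of 0.26 ± 0.070 (SE, n = 2 each) and a 95% interval from 0.06 to 0.46. The unadjusted p was 0.0224 and the adjusted p 0.338 in limma, and the robust trended prior gave 0.0862. Its partner Unc5b gave signals of 6.00 and 6.17 in the knockout arrays, against 5.52 and 5.41 in the control arrays, higher without overlap by 0.16 on the log2 scale (limma adjusted p = 0.405).

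Robo3, the divergent receptor that steers commissural axons and in mammals responds to Nell2 rather than to Slits, gave signals of 0.0257 and 0.0184 in the knockout arrays, against 0.0205 and 0.0389 in the control arrays. Only the second control array was well above background, so Robo3 was not tested. Robo3 lies next to Robo4 on chromosome 9 with 0 genes between them in the RefSeq table. Without the background filter the log2 difference of Robo3 was -0.38 ± 0.412 (SE), with an adjusted p of 0.743 in limma.

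Of the ligands, Slit2, the ligand with which Robo2 restricts ureteric budding, gave signals of 2.84 and 2.94 in the knockout arrays, against 3.22 and 2.87 in the control arrays. The groups overlapped, with a log2 difference of -0.07 ± 0.082 (SE, n = 2 each), a 95% interval from -0.31 to 0.16 and an adjusted p of 0.718. A p that misses the threshold does not show that Slit2 was equal in both groups.

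Slit1, a ligand best known from the developing forebrain and retina, gave signals of 2.32 and 2.66 in the knockout arrays, against 1.92 and 2.27 in the control arrays. Both knockout arrays were higher, by a narrow margin, with a log2 difference of 0.25 ± 0.127 (SE, n = 2 each), a 95% interval from -0.11 to 0.61 and an adjusted p of 0.481. Slit3, whose loss in mice causes hernias of the diaphragm and can leave kidneys missing, gave signals of 0.971 and 0.914 in the knockout arrays, against 0.920 and 0.660 in the control arrays. The first control array lay among the knockout arrays and the second below them. The log2 difference of Slit3 was 0.27 ± 0.185 (SE, n = 2 each), with a 95% interval from -0.25 to 0.80 and an adjusted p of 0.565, and it was 0.03 without control replicate 2.

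Srgap1, which binds the Robo1 tail and inactivates Cdc42, gave signals of 0.228 and 0.235 in the knockout arrays, against 0.228 and 0.192 in the control arrays, for its brighter probe. Its dimmer probe gave 0.139 and 0.116 in the knockout arrays, against 0.121 and 0.131 in the control arrays. The groups overlapped for both probes, with log2 differences of 0.14 ± 0.106 and 0.01 ± 0.119 (SE, n = 2 each) and an adjusted p of 0.592 for the brighter one.

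**Figure D3:**
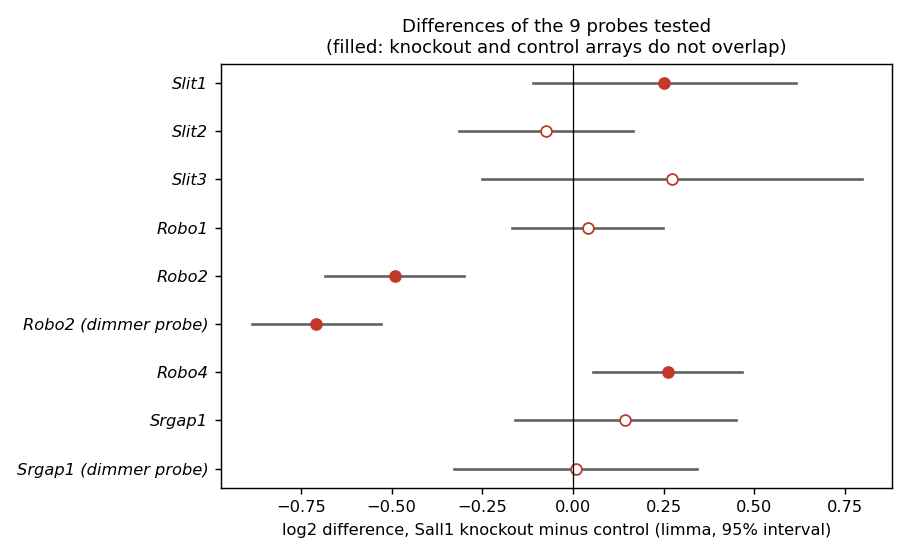
Log2 difference, Sall1 knockout minus control, of the 9 probes tested, with the 95% interval of the limma fit over all probes as a line and filled symbols where the arrays of the 2 groups did not overlap. The intervals of both Robo2 probes lie below 0, that of Robo4 lies above 0, and the others cross it.

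Counted together, 7 of the 8 genes were tested. With an unadjusted p below 0.05, 1 was higher (Robo4) and 1 was lower (Robo2), against 1721 (6.86%) higher and 1465 (5.84%) lower among all tested. Arrays did not overlap for 2 higher genes and 1 lower gene, against 21.8% higher and 27.4% lower among all, so the share that did not overlap, 3 of 7, was near the 49.2% of all tested. Their median log2 difference was 0.14, against -0.01 over all tested.

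Within an array, the ratio of 2 probes does not depend on how arrays are scaled. Each Robo2 probe was set over each of the 7 other tested probes of these genes, and all 14 log2 ratios were lower in both knockout arrays than in both control arrays, by 1.34-fold to 1.98-fold. Robo2 was already known to have the lowest difference of these genes, and the 14 ratios share the same Robo2 probes and arrays. They therefore describe the Robo2 difference again and add no separate support for it. The exact permutation p of each was 0.333 two-sided, the smallest that 2 arrays against 2 can give, and 0.350 after Benjamini-Hochberg adjustment over all 21 ratios computed. The ratio of Robo2 to Six2, the transcription factor that holds nephron progenitors undifferentiated, was -3.17 and -3.26 on the log2 scale in the knockout arrays, against -3.28 and -3.19 in the control arrays. These overlapped, and Robo2 and Six2 were lower by 0.49 and 0.51. Robo2 was higher in both knockout arrays relative to Gdnf, Osr1 and Cited1, by log2 differences of 0.19, 0.36 and 1.71, and lower relative to Nphs1, by -0.91.

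**Figure D4:**
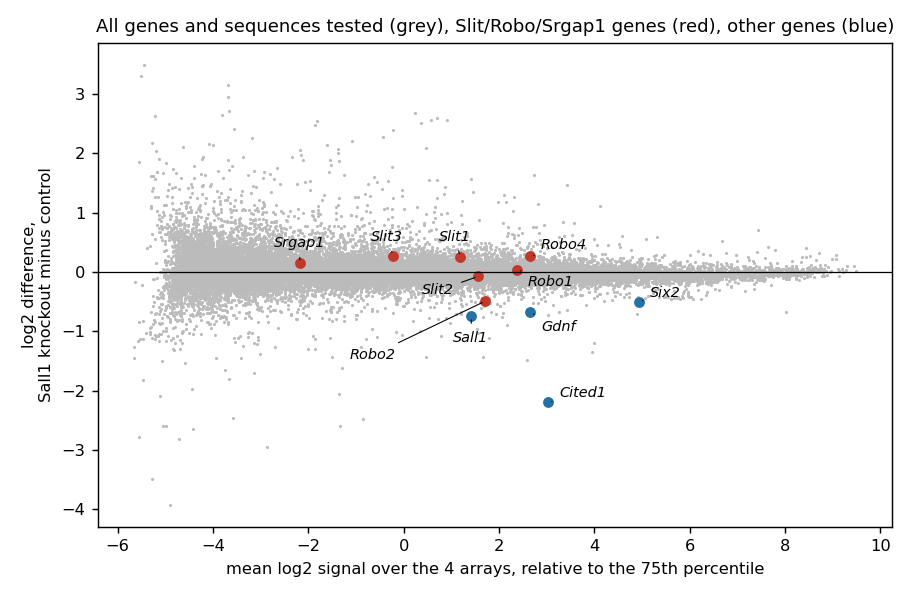
Log2 difference, Sall1 knockout minus control, against the mean log2 signal over the 4 arrays, for all 25097 genes and unnamed sequences tested (grey), the 7 tested Slit, Robo and Srgap1 genes (red) and Sall1, Gdnf, Six2 and Cited1 (blue). Robo2 lies at -0.49, between Slit2 at -0.07 and Sall1 at -0.75, and the other red points lie near or above 0.

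Of a list of 30 other genes of Robo signalling, which holds adaptors, kinases, GTPases, co-receptors and regulators, 29 were tested. With an unadjusted p below 0.05 in limma, 1 was higher and 0 were lower, against 6.86% and 5.84% of all tested. None passed under the robust trended prior, which called 1.16% of all tested. Arrays did not overlap for 4 higher and 5 lower genes, beside 49.2% of all tested, and the median log2 difference was -0.01. Their summed signal was 263.4 to 269.6 in the knockout arrays, against 256.5 to 261.8 in the control arrays, without overlap. The 1 gene was Srgap3, a Srgap1 paralogue active on Rac1, with signals of 2.68 and 2.60 in the knockout arrays, against 2.22 and 1.83 in the control arrays. Its log2 difference was 0.39 ± 0.114 (SE, n = 2 each; limma adjusted p = 0.356), and its further probes differed by 0.30 and 0.45. Srgap2, the third paralogue, differed by 0.09 on both of its probes (limma adjusted p = 0.749). The heparan sulphate proteoglycans that help Slit bind Robo went opposite ways without passing: Gpc1 gave 17.9 and 17.4 in the knockout arrays, against 15.3 and 16.3 in the control arrays, and Sdc1 gave 2.21 and 2.26 in the knockout arrays, against 2.60 and 2.41 in the control arrays.

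A list of genes that set or read the Gdnf domain, which Slit2 and Robo2 limit, was set beside them. Of 27 tested, 13 were lower and 1 was higher with an unadjusted p below 0.05, against 5.84% and 6.86% of all tested, with a median log2 difference of -0.18. None passed with the default prior, and 5 were called lower under the robust trended prior (Osr1, Gdnf, Kif26b, Itga8 and Six2), against 0.622% of all tested. The list shares 7 genes with the nephron progenitor list described below, among them 4 of these 5, so the counts of the 2 lists are not separate results. Gdnf itself gave signals of 4.61 and 5.37 in the knockout arrays, against 7.90 and 8.08 in the control arrays. It was lower in both knockout arrays, with a log2 difference of -0.68 ± 0.097 (SE, n = 2 each), an adjusted p of 0.216 in limma and 0.0134 under the robust trended prior.

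The receptor side of the same signal was lower by less. Ret, the tyrosine kinase receptor of Gdnf in the bud tip, gave 1.43 and 1.48 in the knockout arrays, against 1.75 and 1.78 in the control arrays, a log2 difference of -0.28 (limma adjusted p = 0.286). Gfra1, its co-receptor, gave 0.763 and 0.751 in the knockout arrays, against 0.855 and 0.859 in the control arrays, a log2 difference of -0.18 (limma adjusted p = 0.365). Neither pair of groups overlapped, and neither gene passed.

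Among the other limits on the domain, Foxc1, a forkhead factor whose loss also enlarges the Gdnf domain in mice, gave 4.08 and 4.23 in the knockout arrays, against 4.67 and 4.79 in the control arrays. Its log2 difference was -0.19 (limma unadjusted p = 0.0368, adjusted p = 0.371), that of its paralogue Foxc2 was -0.11, and that of Spry1, which damps Ret signalling, was -0.18. Eya1, which drives Gdnf, gave 29.9 and 27.5 in the knockout arrays, against 27.0 and 27.9 in the control arrays, with overlap. So within the group Robo2, Gdnf, Osr1 and Six2 were lower by 0.49 to 0.85 on the log2 scale, while Slit2, Eya1 and Robo1 lay within 0.08 of 0.

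**Figure D5:**
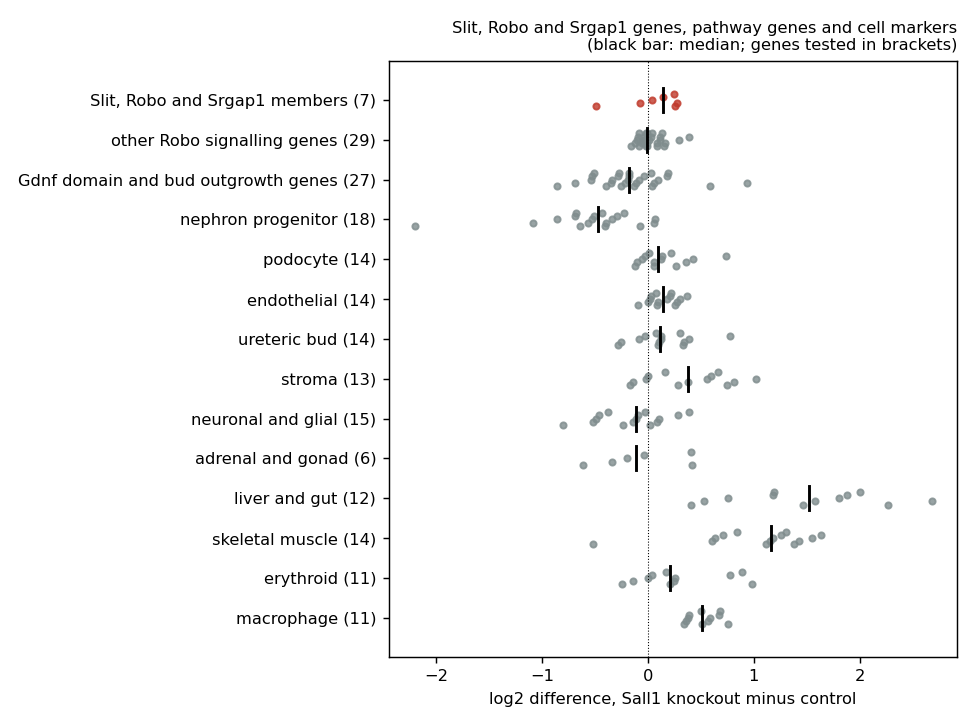
Log2 difference, Sall1 knockout minus control, of each tested gene in the Slit, Robo and Srgap1 group (red) and in 13 other lists (grey), with the median of each list as a black bar. The other Robo signalling genes lie between -0.16 and 0.39, nephron progenitor genes lie to the left with a median of -0.47, and liver and most skeletal muscle genes lie to the right.

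Robo2 is known to be made both by nephron progenitors and by podocytes, and the markers of both were counted. Of 18 nephron progenitor genes, 13 were lower and 0 higher at that unadjusted p, against 5.84% and 6.86% of all tested, the median log2 difference was -0.47, and the summed signal was 121.0 to 131.1 in the knockout arrays, against 174.0 to 181.1 in the control arrays. Cited1, a marker of uncommitted progenitors, gave 3.98 and 3.65 in the knockout arrays, against 16.8 and 18.3 in the control arrays (log2 difference -2.20; limma adjusted p = 0.0783). Six2 gave 24.2 and 27.5 in the knockout arrays, against 37.3 and 35.8 in the control arrays (log2 difference -0.51; limma adjusted p = 0.246). Of 14 podocyte genes, 4 were higher and 0 lower by the same measure, and none was called under either prior, beside 0% and 1.16% of all tested. Arrays did not overlap for 7 higher genes and 1 lower gene, against 21.8% and 27.4% of all tested, and 6 genes overlapped. The median log2 difference was 0.09, with a summed signal of 61.68 to 64.83 in the knockout arrays, against 60.43 to 60.74 in the control arrays. Nphs1, the slit diaphragm protein nephrin that Robo2 binds through an adaptor in mouse podocytes, gave 0.0834 and 0.0801 in the knockout arrays, against 0.0540 and 0.0689 in the control arrays (log2 difference 0.42; limma adjusted p = 0.381). The summed progenitor signal was lower in the same arrays as Robo2, and its part in the Robo2 difference was not tested.

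Beside Robo4 stand the endothelial markers. Of 14 tested, 7 were higher and 0 lower with an unadjusted p below 0.05, against 6.86% and 5.84% of all tested, with a median log2 difference of 0.14 and a summed signal of 96.79 to 101.8 in the knockout arrays, against 90.80 to 91.47 in the control arrays. Cldn5, a tight junction protein of vessels, gave 5.52 and 5.52 in the knockout arrays, against 4.20 and 4.36 in the control arrays (log2 difference 0.37; limma adjusted p = 0.231), and was the 1 marker called under the robust trended prior, with an adjusted p of 0.0211. That prior called 0.538% of all tested higher. Eng differed by 0.26, Tek by 0.31 and Sox17 by 0.28. The other 7 markers had an unadjusted p above 0.05, among them Pecam1 at 0.03 and Emcn at 0.00. The summed endothelial signal was higher in the same arrays as Robo4, and its part in the Robo4 difference was not tested.

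Markers of other cells and of tissue next to the kidney were summed in the same way, and a sum is carried by its brightest genes. The summed signal of liver and gut genes was 36.19 to 40.40 in the knockout arrays, against 13.65 to 19.19 in the control arrays, with Cdx2, a gut-defining factor, not above background on any of the 4. Skeletal muscle genes summed to 71.57 to 104.3 in the knockout arrays, against 27.13 to 59.92 in the control arrays, with Ckm likewise not above background, and the second control array, where Slit3 was low, gave the lower control sum. Des, a muscle gene also made outside skeletal muscle, differed by -0.51 and was the 1 gene of that list called under the robust trended prior (adjusted p = 0.0454). Stromal genes summed to 170.8 to 187.7 in the knockout arrays, against 130.2 to 159.2 in the control arrays. Fibin and Penk differed by 0.75 and 0.66 (adjusted p = 0.00103 and 0.00495 under the robust trended prior). Foxd1 and Pdgfra, which mark kidney stroma, differed by -0.17 and -0.14 without passing. The sum of macrophage genes was 9.632 to 11.34 in the knockout arrays, against 7.294 to 7.917 in the control arrays. Genes of neurons, a known source of Slit1, and of glia summed to 5.078 to 5.343 in the knockout arrays, against 5.598 to 6.514 in the control arrays, with Stmn2, Nefl and Nefm lower and Foxd3 likewise not above background. Erythroid genes summed to 959.6 to 1727 in the knockout arrays, against 912.7 to 1588 in the control arrays, and adrenal and gonad genes to 9.603 to 13.07 in the knockout arrays, against 8.357 to 9.743 in the control arrays. Both of these overlapped between the groups. Most of the adrenal and gonad sum was Cyp17a1, the median of that list was -0.11, and Mc2r, the adrenal receptor for corticotropin, differed by -0.61 (adjusted p = 0.0274 under the robust trended prior). In ureteric bud genes, which share their compartment with Slit2, the sums were 47.94 to 48.15 in the knockout arrays, against 44.37 to 45.87 in the control arrays. Under the robust trended prior, 2 of 12 liver and gut genes and 2 of 13 stromal genes were called higher. So were 1 of 11 macrophage genes and 1 of 14 ureteric bud genes, beside 0.538% of all tested. Called lower was 1 gene each of skeletal muscle, of neurons and glia, and of adrenal and gonad, beside 0.622% of all tested. The part of these markers in any Slit or Robo difference was not tested.

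The genes whose pattern over the 4 arrays lay nearest to that of Robo2, by Euclidean distance between log2 signals centred on their mean and out of 14630 named genes searched, were Kcne3 (0.0290), Fndc3c1 (0.0293), Aldh1a7 (0.0366), Btbd11 (0.0395) and Prtg (0.0415). Each was lower in both knockout arrays, by log2 differences between -0.46 and -0.50. This likeness is a description over 4 arrays, and genes with a like group difference come close by construction.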

How the data were processed

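Total RNA of 4 kidney samples was hybridised to 1-colour Agilent arrays of design 028005, built on mouse genome mm9, and per the file headers the deposited scanner values are intensities on a linear scale from Feature Extraction 10.7.3.1, background-corrected and not scaled between arrays. The deposited value table holds the same intensities, equal within 1% for 100% of 55249 single-spot rows, and served as an alternative. All 4 arrays lay on 1 slide and 1 scan. Replicates were numbered in accession order.

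Signals were divided by each array's 75th percentile (535.1 and 523.1 in the knockout arrays, 600.0 and 549.4 in the control arrays) and set to log2. Control spots and outlier-marked spots were left out, and a probe was kept where both arrays of 1 group or the other had it well above background (34281 probes). Symbols came from RefSeq accessions (26413 probes matched, 29268 did not). The brightest probe represented a gene. The comparison was a two-sided limma fit (version 3.58.1, run in R 4.3.3) with lmFit, eBayes and the default prior. It had 2 residual degrees of freedom and a prior worth 1.80, p-values were adjusted by Benjamini-Hochberg over all genes and unnamed sequences, and it was repeated over every probe. SE and intervals come from these fits, which were tested on simulated data. No set was tested.

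The genes described, the lists and the tests were chosen with earlier results of these data known. Beside these genes, the text names Sall1, up to 4 genes of each list by unadjusted p, a set of Gdnf domain and srGAP genes, and the 5 named genes nearest to Robo2, passing over RIKEN, Gm and LOC names. Pecam1, Emcn, Foxd1, Pdgfra, Cdx2, Ckm and Foxd3 were named after their values were seen. Further probes were compared for Robo2 and for the genes named by rule, but not for Srgap1 or the genes named after their values were seen. Of 14 such probes, 13 differed in the same direction and 1, of Star and above background on no array, in the other.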

Additional observations from a re-analysis of the deposited data

How the results depend on the processing

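With 2 arrays a group, calls depend on the variance prior. The number of genes called higher was 0 with the default prior, 19 with normexp background correction, 48 with a trended prior, 135 with a trended and robust prior and 14 at an adjusted p under 0.1. The number called lower was 0, 22, 73, 156 and 13 under the same settings, and leaving out 1 array gave 0 to 0 in both directions. Robo2 kept its direction under every alternative run, at -0.49 with adjusted p values of 0.043 (trended) and 0.0109 (trended and robust), and its log2 difference ran from -0.60 (mean over its probes) to -0.47 (quantile normalization), and from -0.54 to -0.45 with 1 array left out. Of 112 values of the 7 genes under alternatives, 2 changed sign: Slit2 was 0.0071 without control replicate 1 (range -0.16 to 0.0071 with 1 array left out) and Robo1 was -0.0070 without Sall1 knockout replicate 2 (range -0.0070 to 0.088). With 1 array left out, Slit3 ran from 0.034 to 0.51, Srgap1 from 0.020 to 0.27, Slit1 from 0.13 to 0.38 and Robo4 from 0.20 to 0.32. Of the other named genes, Srgap2 ran from -0.035 to 0.22, Nr5a1 from -0.74 to 0.062, Gata1 from -0.087 to 1.64, Tfrc from -0.28 to 0.0042 and Epor from -0.041 to 0.54 with 1 array left out, and Star was 0.018 under normexp. The median over all tested lay between -0.05 and 0.01 under the scalings run, against -0.01 in the values reported. Normexp ran on the median spot signal. No paired analysis was possible because the replicate numbers follow accession order and pair no samples. Robo3 is limited by its signal over background.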
